A study of Mus musculus with 6 samples.

Results

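The PAQR family, named for the progestin and adiponectin receptors it includes, was examined in the livers of SHP-knockout and wild-type mice. Its 9 members here are Adipor1, Adipor2, Paqr3, Paqr4, Paqr7, Paqr8, Paqr9, Mmd and Mmd2, found by the gene name in the count table. All 9 were among the 19594 genes with counts, of 33495 genes listed. The family was chosen by a measured value, because Mmd2 had one of the largest increases between the genotypes, and the other 8 members were taken by family name with that comparison known. The differences of the members between genotypes are therefore given as a description, with standard errors and no p-values.

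Livers came from 3 mice labelled SHP -/- and 3 labelled wild type, all male, on a C57BL6 background and 2 months old. The sources used here do not say how the SHP allele was made or whether the mice were littermates. SHP is the product of Nr0b2, an orphan nuclear receptor that lacks a DNA-binding domain and curbs bile acid synthesis in liver by repressing receptors such as LRH-1. RNA was captured by its 5′ cap with a variant of the cap-binding protein EIF4E. It was sequenced as 36-cycle pairs with 3 barcoded libraries in a lane. The values therefore describe RNA after this selection, and how complete the selection was, or whether it was equal between libraries, was not tested. The study asks which liver transcripts differ when SHP is missing.

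PAQR proteins are multi-pass membrane proteins. Adiponectin receptors bind a hormone from fat tissue and act through AMP-activated protein kinase, PPARα and the hydrolysis of ceramide. Membrane progestin receptors answer steroids at the cell surface, and a further set of PAQR proteins resides in the Golgi and acts on Ras and SREBP signalling rather than binding a known circulating hormone.

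Libraries held 4494353 to 7225842 counts over genes in knockout and 4982530 to 6155064 in wild type. Mitochondrially encoded genes took 5.66% to 7.10% of counts in knockout and 10.2% to 10.3% in wild type, and whether this bears on the members was not tested. Levels below are CPM, counts scaled to a common library total. Nr0b2 itself had 6.62, 7.07 and 10.3 CPM in knockout and 17.7, 12.3 and 13.5 CPM in wild type, so its transcript was lower but still counted in the libraries labelled knockout. The difference, −0.81 ± 0.25 on the log2 scale (SE), passed the threshold (adjusted p = 0.0442 by limma voom), and did so in 1 of 6 fits with a library removed. It did not with no filter on low counts or with the replicate number as a block (adjusted p from 0.0323 to 0.121 over 11 alternatives). Across 11794 tested genes, 1713 passed an adjusted p of 0.05. That is 14.5% of genes, 7.58% higher and 6.94% lower in knockout, and the number was 1073 with knockout library 1 removed and 633 with wild-type library 3 removed. The defining hepatocyte genes were abundant in both groups, with the 8 listed markers together at 84844 to 90739 CPM in knockout and 79636 to 101698 CPM in wild type. Most of that sum was Alb. Of these markers, Tat was lower past the threshold (log2 difference −0.35 ± 0.10 (SE), limma voom adjusted p = 0.0284).

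Of the 9 members, 7 had enough counts to be fitted, and Paqr4 and Paqr8 fell below the filter on low counts. The calls over all genes included 3 of these 7, beside 14.5% of all tested genes: Mmd2 and Paqr9, higher in knockout, and Mmd, lower. The same 3 had libraries that did not overlap between genotypes, a separation found for 35.1% of all tested genes. Since the family was picked with this comparison known, these counts are no test of the members, and nothing is read from them.

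**Figure D1:**
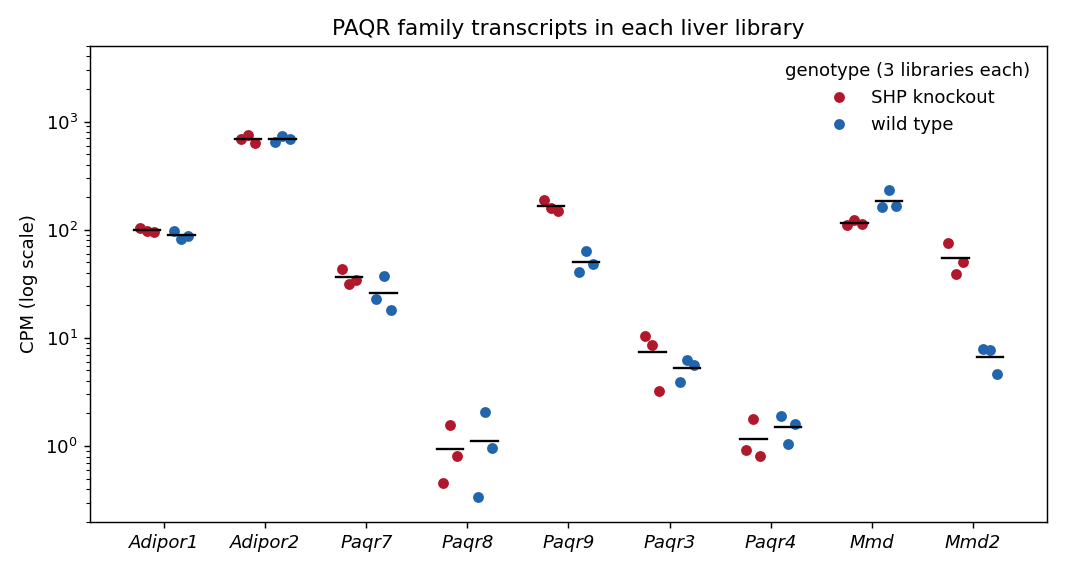
Level of each member in every library, in CPM on a log axis; points are libraries (3 SHP knockout in red at left, 3 wild type in blue at right) and bars are group means. The knockout points of Mmd2 and Paqr9 lie above every wild-type point and those of Mmd lie below, while the groups of the other 6 members overlap.

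Mmd2 and Mmd are close relatives, also called PAQR10 and PAQR11, whose proteins sit in the Golgi and can hold Ras there. Mmd was first described for its induction as monocytes mature into macrophages, and Mmd2 is known mostly from testis and brain. Because the pair differed in opposite directions, the 250 bases before each RefSeq start (build GRCm38.p6) are shown, Mmd2 from the minus strand at chr5:142608753-142609002 and Mmd from the plus strand at chr11:90249226-90249475. Capitals mark GC boxes (GGGCGG, or CCGCCC where the motif lies on the other strand).
Mmd2: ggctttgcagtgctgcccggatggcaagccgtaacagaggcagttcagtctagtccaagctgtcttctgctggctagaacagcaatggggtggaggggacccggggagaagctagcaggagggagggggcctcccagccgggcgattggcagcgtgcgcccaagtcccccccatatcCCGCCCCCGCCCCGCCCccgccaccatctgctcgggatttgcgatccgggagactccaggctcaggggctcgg
Mmd: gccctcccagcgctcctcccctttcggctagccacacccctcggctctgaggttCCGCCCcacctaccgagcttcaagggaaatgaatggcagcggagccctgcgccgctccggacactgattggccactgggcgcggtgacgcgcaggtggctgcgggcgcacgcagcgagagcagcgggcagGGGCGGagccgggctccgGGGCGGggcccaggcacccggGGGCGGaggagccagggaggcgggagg

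Both windows are rich in CpG, with 15 CpG pairs for Mmd2 and 25 for Mmd, against a median of 6 over 32851 RefSeq windows of the same length. Counted without overlap, the Mmd2 window holds 2 GC boxes and the Mmd window 4. Windows were found for 8 members, 11 in all, and 9 of the 11 held a GC box, against 32.7% of all windows. The window of Adipor2 and the first of Paqr7 held none. An LRH-1 half-site (CAAGGTCA or CAAGGCCA, both strands) was found in 1 of the 11 windows, at the second start of Paqr8, against 3.28% of all windows. The TATA letters TATAAA, searched on the strand of the gene, were in 0 of the 11 and in 7.59% of all windows. A match or its absence describes these letters in this window and nothing about the factor.

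Mmd2 (ENSMUSG00000039533; mm9 chromosome 5, 143038319 to 143084754, minus strand) had 333, 199 and 371 counts in the knockout libraries and 46, 37 and 29 in the wild-type libraries. That is 76.0, 39.1 and 49.8 CPM in knockout and 7.85, 7.69 and 4.605 CPM in wild type. The lowest knockout library stood well above the highest wild-type library, and within the knockout group the highest library was 1.95 times the lowest. Group means were 55.0 ± 19.02 CPM in knockout and 6.71 ± 1.83 CPM in wild type (SD, n = 3 each). The fitted log2 difference was 3.01 ± 0.33 (SE), a fold of 8.04, and it ranked 14th of 11794 from the top. In the authors' deposited table, which pools the libraries of a group, the log2 ratio was also 3.01.

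Mmd (ENSMUSG00000003948; mm9 chromosome 11, 90048998 to 90139903, plus strand) had 111, 122 and 112 CPM in knockout and 161, 231 and 164 CPM in wild type. The knockout libraries were tightly grouped, and wild-type library 2 was the highest of the 6. Means were 115 ± 6.36 CPM in knockout and 185 ± 39.4 CPM in wild type (SD, n = 3 each), a log2 difference of −0.66 ± 0.14 (SE). Without wild-type library 2 the difference was −0.49. The gene model of Mmd in the table spans 90906 bases, against 29298 in the later RefSeq annotation. It contains AL626785.1 on the same strand, whose own counts were 1.12% to 2.68% of those of Mmd in knockout and 2.76% to 6.78% in wild type. AL626785.1 was also lower in knockout, with a log2 difference of −1.90 ± 0.49 (SE). Whether its reads bear on the difference of Mmd was not tested. The sources used here do not say how reads shared by overlapping genes were counted.

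Set against each other within a library, Mmd2 reached 68.7%, 31.9% and 44.5% of the Mmd CPM in the knockout livers and 4.88%, 3.34% and 2.81% in the wild-type livers. Per length, Mmd2 had 23.0, 11.8 and 15.05 CPM per kilobase of gene model in knockout and 2.37, 2.32 and 1.39 in wild type, and Mmd had 20.6, 22.7 and 20.8 in knockout and 29.8, 42.8 and 30.5 in wild type. On that scale Mmd2 was above Mmd in knockout library 1 and below it in the other 5 libraries. In bulk liver, fewer cells of a type and less RNA per cell cannot be told apart. The 12 macrophage markers together stood at 437 to 670 CPM in knockout and 431 to 505 CPM in wild type, with Marco, C1qa and C1qc higher past the threshold and 0 lower. Of those that did not pass, Timd4 had a log2 difference of −0.81, and Emr1, Cd68 and Vsig4 lay between −0.13 and −0.01. Clec4f, Csf1r, C1qb, Cd5l and Lyz2 lay between 0.10 and 0.38. Neuronal and glial markers with counts (3 of 5) summed to 6.71 to 13.9 CPM in knockout and 6.44 to 9.89 CPM in wild type, mostly Syt1. Of 5 testis markers looked up, 0 were among the genes with counts. Matrix and stellate markers, 8 in all, summed to 202, 406 and 408 CPM in knockout and 416, 383 and 396 CPM in wild type, with Rgs5 lower past the threshold. The others did not pass and were split in direction. Col1a1, Col1a2 and Col3a1 had log2 differences of 1.07, 0.69 and 0.47, and Dcn, Lrat, Des and Reln of −0.33, −0.44, −0.40 and −0.37. The 8 sinusoidal endothelial markers summed to 328, 512 and 491 CPM in knockout and 541, 484 and 519 CPM in wild type, with Lyve1 higher past the threshold. The others did not pass, and most lay on the lower side. Fcgr2b, Kdr, Clec4g, Stab2, Pecam1 and Cdh5 had log2 differences of −0.56, −0.42, −0.40, −0.30, −0.19 and −0.01, and Stab1 of 0.08. Knockout library 1 had the lowest sum of the 6 on both lists and the lowest macrophage sum in knockout, and it also had the highest Mmd2 and Paqr9 levels. Without that library the log2 difference was 2.78 for Mmd2, 1.63 for Paqr9 and −0.64 for Mmd. The part of other cell types in the levels of Mmd and Mmd2 was not tested.

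Paqr9 encodes a membrane progestin receptor, and in mouse liver its protein is reported to stabilise PPARα during fasting. It had 187, 158 and 149 CPM in knockout and 40.3, 63.6 and 48.3 CPM in wild type. All 3 knockout libraries lay well above the highest wild-type library. Means were 164 ± 19.8 CPM in knockout and 50.7 ± 11.9 CPM in wild type (SD, n = 3 each), with a log2 difference of 1.72 ± 0.15 (SE), or a fold of 3.30. Paqr9 (ENSMUSG00000064225) lies on mm9 chromosome 9 from 95460370 to 95461537, plus strand. Its model is a single stretch of 1168 bases, whereas the gene spans 8389 bases in the later RefSeq annotation, so transcript outside the model would not be counted under this name.

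Paqr7, the membrane progestin receptor alpha, had 43.6, 31.2 and 34.4 CPM in knockout and 23.0, 37.0 and 18.1 CPM in wild type. Wild-type library 2 lay inside the knockout range, and the other wild-type libraries lay below it. The log2 difference was 0.55 ± 0.22 (SE); leaving out wild-type library 2 gave 0.81, and leaving out wild-type library 3 gave 0.31. Paqr7 lies on mm9 chromosome 4 from 134052612 to 134064728, 940 kb beyond the end of Nr0b2. Paqr8, the beta form of the receptor, was counted 16 times over the knockout libraries and 18 times over the wild-type libraries. Those counts amount to 0.946 CPM (95% exact Poisson interval 0.540 to 1.54) in knockout and 1.06 CPM (0.629 to 1.68) in wild type. These intervals cover counting error only, and only if the counts are independent molecules. A difference in Paqr8 was not detectable at this depth.

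Of the other progestin receptor genes, which are not members, Paqr5 had 7 counts over the knockout libraries and 2 over the wild-type libraries, and Paqr6 was not analysed here. Per kilobase of gene model, Paqr9 was above Paqr7 and Paqr7 above Paqr8 in all 6 libraries.

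The adiponectin receptors differed little between the genotypes. Adipor2, which in liver is tied to PPARα and to keeping membranes fluid, had 689, 758 and 631 CPM in knockout and 649, 736 and 696 CPM in wild type. The ranges overlapped almost completely, and the log2 difference was −0.0044 ± 0.103 (SE). Adipor1, tied to AMP-activated protein kinase, had 104, 97.6 and 94.5 CPM in knockout and 98.1, 82.5 and 87.3 CPM in wild type. Its log2 difference was 0.14 ± 0.11 (SE), and wild-type library 1 lay within the knockout range. The coefficient of variation between livers of one genotype was 4.86% for Adipor1 and 9.20% for Adipor2 in knockout, and 8.92% for Adipor1 and 6.25% for Adipor2 in wild type. For Mmd2 it was 34.6% in knockout and 27.2% in wild type.

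Paqr3, a Golgi protein that anchors the SCAP–SREBP complex, had 10.5, 8.64 and 3.22 CPM in knockout and 3.92, 6.24 and 5.56 CPM in wild type. Knockout library 3 was the lowest of the 6 and the other knockout libraries were the highest. The log2 difference of 0.22 ± 0.42 (SE) changed to −0.07 when knockout library 1 was removed and to 0.88 when knockout library 3 was. Paqr3 overlaps the opposite-strand gene Bmp2k over 9539 bases of its 29268-base span. Bmp2k had 40 to 74 counts in knockout and 28 to 75 in wild type. Without a stated use of strand, reads within the overlap cannot be assigned to either gene. Paqr4, a Golgi member linked to ceramide handling, was counted 19 times in knockout and 26 times in wild type. This gave 1.12 CPM (95% exact Poisson interval 0.676 to 1.75) in knockout and 1.53 CPM (1.00 to 2.24) in wild type.

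**Figure D2:**
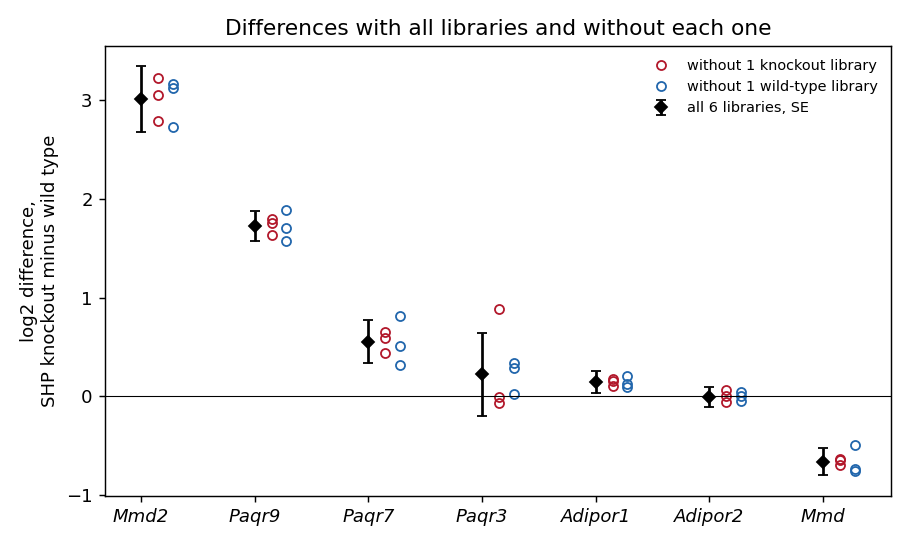
Log2 difference (knockout minus wild type) of the 7 fitted members; diamonds with bars are the fit on all 6 libraries with its standard error, and open circles are the fits without 1 knockout (red) or 1 wild-type (blue) library. Mmd2 stayed between 2.73 and 3.22, Paqr9 between 1.57 and 1.89 and Mmd between −0.75 and −0.49, whereas Paqr3 ran from −0.07 to 0.88.

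The median log2 difference of the 7 fitted members was 0.22, the value of Paqr3, beside −0.01 for all genes tested. Since the members were chosen with this comparison known, the median is a description and no test.

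**Figure D3:**
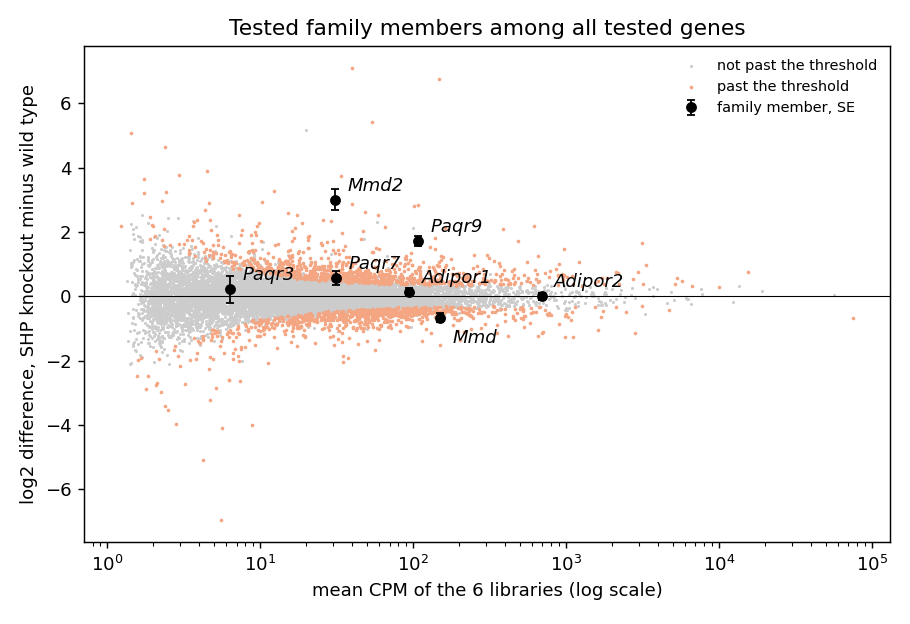
Log2 difference (knockout minus wild type) of all 11794 tested genes against their mean CPM over 6 libraries on a log axis; orange genes passed the threshold, and black points with standard errors are the 7 fitted members. Mmd2 at 3.01 and Paqr9 at 1.72 lie above the bulk of genes, while Adipor2, the most abundant member, sits at the zero line.

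To compare levels between genes, CPM were divided by the length of the gene model in kilobases. On this scale Adipor2 led in both genotypes, at 175 ± 16.1 CPM per kb in knockout and 175 ± 10.9 in wild type (SD, n = 3 each). Paqr9 was next, at 141 ± 16.9 in knockout, where its range just met that of Adipor2, and 43.4 ± 10.2 in wild type, where it overlapped that of Mmd instead. In knockout, Mmd (21.4 ± 1.18), Adipor1 (19.6 ± 0.954), Mmd2 (16.6 ± 5.75) and Paqr7 (12.8 ± 2.27) followed, each overlapping the next. In wild type the order after Mmd (34.4 ± 7.31) was Adipor1 (17.8 ± 1.59), Paqr7 (9.18 ± 3.46) and Mmd2 (2.03 ± 0.552), with no overlap between these neighbours. Paqr3 and Paqr4 came below in both genotypes and overlapped each other, and Paqr8 was lowest, at 0.181 ± 0.109 in knockout and 0.215 ± 0.169 in wild type. The short model of Paqr9 makes its place in this order uncertain.

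**Figure D4:**
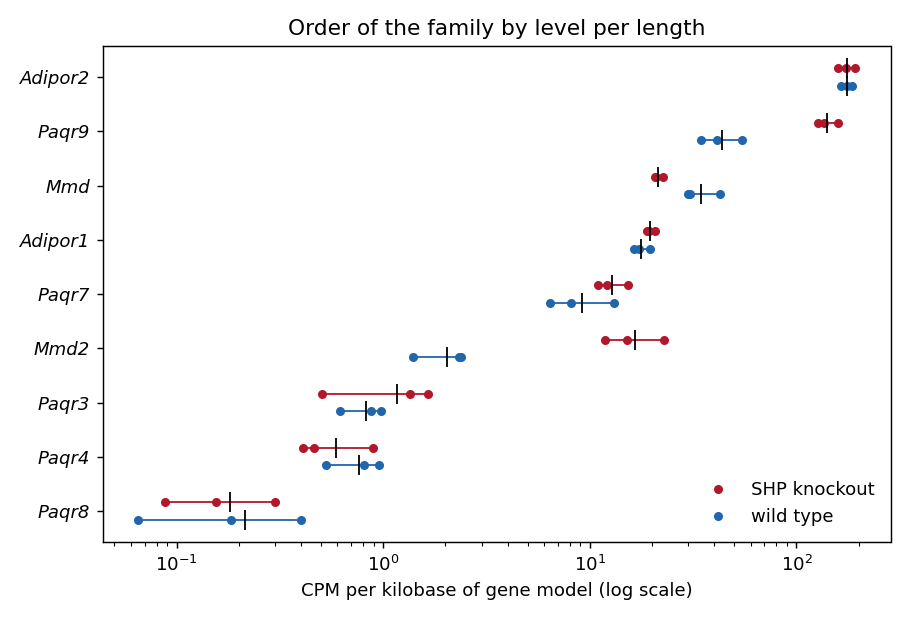
CPM per kilobase of gene model on a log axis for the 9 members, ordered by the wild-type mean; points are libraries (knockout in red above wild type in blue), lines their range and ticks the means. Mmd2 lies among Adipor1 and Paqr7 in knockout, at 16.6, and below both in wild type, at 2.03.

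The whole family summed to 1172 ± 84.0 CPM in knockout and 1059 ± 94.9 CPM in wild type (SD, n = 3 each), ranges that overlapped. The shares of the members in this sum are given as a description, since the family was chosen with this comparison known. Paqr9 supplied 14.0% ± 1.16 of family counts in knockout and 4.75% ± 0.685 in wild type, and Mmd2 4.69% ± 1.51 in knockout and 0.635% ± 0.175 in wild type. Mmd supplied 9.84% ± 0.698 in knockout and 17.4% ± 2.10 in wild type. Adipor2 had the largest share of counts in all 6 libraries, at 59.1% ± 2.93 in knockout and 65.6% ± 2.39 in wild type. These shares depend on one another, since they add to the whole.

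The 5 genes whose log2 CPM over the 6 libraries followed that of Mmd2 most closely were Ergic3, a protein of the early secretory pathway, Fam73b, Mrpl4 of the mitochondrial ribosome, Plbd2 and Ndufb7 of respiratory complex I. Their Pearson correlations were 0.996 to 0.998, and 732 of 9528 genes compared reached 0.9 over these 6 libraries of 2 genotypes. Their own differences were smaller, with Ergic3 at 116 ± 7.21 CPM in knockout and 76.8 ± 5.52 CPM in wild type and Mrpl4 at 22.2 ± 5.05 CPM in knockout and 8.23 ± 1.36 CPM in wild type (SD, n = 3 each).

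Genes that work with the PAQR proteins were taken by function in 5 lists of non-members, with earlier results of these data known. They were tested with limma voom over all 11794 genes, of which 14.5% passed. The share that passed was 0% of the adiponectin list, 13.6% of the ceramide list, 28.6% of the progestin list, 25% of the Ras, ERK and SREBP list and 6.25% of the desaturation list. These are lists of 7 to 22 tested genes, and whether any list differs from the rest by its share was not tested. Downstream of the adiponectin receptors, of 19 genes of the adiponectin and AMP-activated kinase pathway 18 were tested, and 0 passed by limma voom or limma trend, with 1 at an unadjusted p under 0.05. That gene was Stk11, the kinase upstream of AMP-activated kinase, named after its value was seen, at 120 ± 5.93 CPM in knockout and 88.7 ± 20.7 CPM in wild type (SD, n = 3 each; adjusted p = 0.0573). Ppara, the most abundant, had a log2 difference of −0.14 ± 0.14 (SE; adjusted p = 0.55) and Acacb, an acetyl-CoA carboxylase, one of 0.09 ± 0.14 (adjusted p = 0.688). Adipoq, the ligand, had 0 counts in the knockout libraries and 2 in 1 wild-type library. The list median was −0.06.

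Among 22 tested genes of ceramide and sphingolipid metabolism, of 25 listed, 2 rose, 1 fell and 19 did not pass, with a median log2 difference of −0.01. Sphk2, a sphingosine kinase, had 71.0, 71.5 and 80.0 CPM in knockout and 48.8, 49.5 and 42.4 CPM in wild type (log2 difference 0.67 ± 0.12, limma voom adjusted p = 0.00327). Ormdl3, which restrains the first step of sphingolipid synthesis, had 124, 133 and 114 CPM in knockout and 85.3, 87.3 and 92.1 CPM in wild type (0.48 ± 0.11, adjusted p = 0.0105). Both separated the genotypes completely and passed in 6 of 6 fits without 1 library. Acer3, an alkaline ceramidase, fell to 11.4, 9.62 and 10.7 CPM in knockout, against 15.01, 19.1 and 16.4 CPM in wild type (−0.65 ± 0.20, adjusted p = 0.0427), a call held in 1 of those 6 fits and lost with no filter on low counts and with the replicate block (adjusted p from 0.0375 to 0.118 over 11 alternatives). Ceramide synthase 2, listed as Lass2 and the most abundant gene that did not pass, had 0.28 ± 0.10 (adjusted p = 0.078).

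For a list of Ras, ERK and SREBP pathway genes, which bear on Paqr3, 16 of 17 genes were tested, and 4 rose, 0 fell and 12 did not pass (median 0.08). Srebf2, the transcription factor of sterol synthesis, had 99.6, 80.5 and 83.5 CPM in knockout and 61.1, 56.3 and 41.1 CPM in wild type (log2 difference 0.75 ± 0.15, limma voom adjusted p = 0.00599). Scap, the escort that brings SREBP to the Golgi, had 92.5, 96.2 and 94.9 CPM in knockout and 81.7, 57.4 and 66.4 CPM in wild type (0.47 ± 0.13, adjusted p = 0.0271). The ERK kinases Map2k2 and Map2k1 rose by 0.48 ± 0.10 and 0.47 ± 0.12 on the log2 scale (adjusted p = 0.0083 and 0.0236). Insig1 and Insig2, which retain SCAP, did not pass (0.07 ± 0.13, adjusted p = 0.768, and 0.09 ± 0.13, adjusted p = 0.702). Scap and Map2k1 lost their calls in 5 and 4 of the 6 fits without 1 library, so that 2 genes passed without knockout library 1 or 2 or wild-type library 2 or 3.

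Around the membrane progestin receptors, 7 of 8 genes were tested, and 0 rose, 2 fell and 5 did not pass (median −0.25). Gnai3, an inhibitory G protein subunit, had 98.2, 108 and 91.8 CPM in knockout and 124, 131 and 131 CPM in wild type (log2 difference −0.38 ± 0.11, limma voom adjusted p = 0.0304), and Serbp1, an mRNA-binding protein that pairs with Pgrmc1, had −0.34 ± 0.10 (adjusted p = 0.036). Neither call was made without knockout library 1 or 3 or wild-type library 2 or 3, and Gnai3 alone passed without knockout library 2 or wild-type library 1. Pgrmc1, a heme-binding progesterone receptor component, was abundant and level, at 1117 ± 5.54 CPM in knockout and 1147 ± 90.3 CPM in wild type (SD, n = 3 each; −0.03 ± 0.09, adjusted p = 0.84). Gnai2 had 0.10 ± 0.11 (adjusted p = 0.554). Pgr, the nuclear progesterone receptor, had 2 counts in knockout and 4 in wild type.

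Of 16 genes of fatty acid desaturation and phospholipid remodelling, which bear on the membrane role of Adipor2, 1 rose, 0 fell and 15 did not pass (median 0.18). Fads1, the delta-5 desaturase, had 736, 594 and 676 CPM in knockout and 534, 354 and 475 CPM in wild type (log2 difference 0.57 ± 0.14, limma voom adjusted p = 0.0157). The Fads1 call was lost without knockout library 1 or wild-type library 3 (adjusted p = 0.0583 and 0.0578, in a range of 0.00357 to 0.0583 over 11 alternatives). Scd1, the main liver desaturase, had 5996 ± 606 CPM in knockout and 7063 ± 351 CPM in wild type, and Acsl1 1659 ± 207 CPM in knockout and 1977 ± 136 CPM in wild type (SD, n = 3 each; adjusted p = 0.124 and 0.126). Fads2 passed as well without knockout library 2, and Scd2 in place of Fads1 without knockout library 1, while without wild-type library 3 no gene of the list passed by limma voom.

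**Figure D5:**
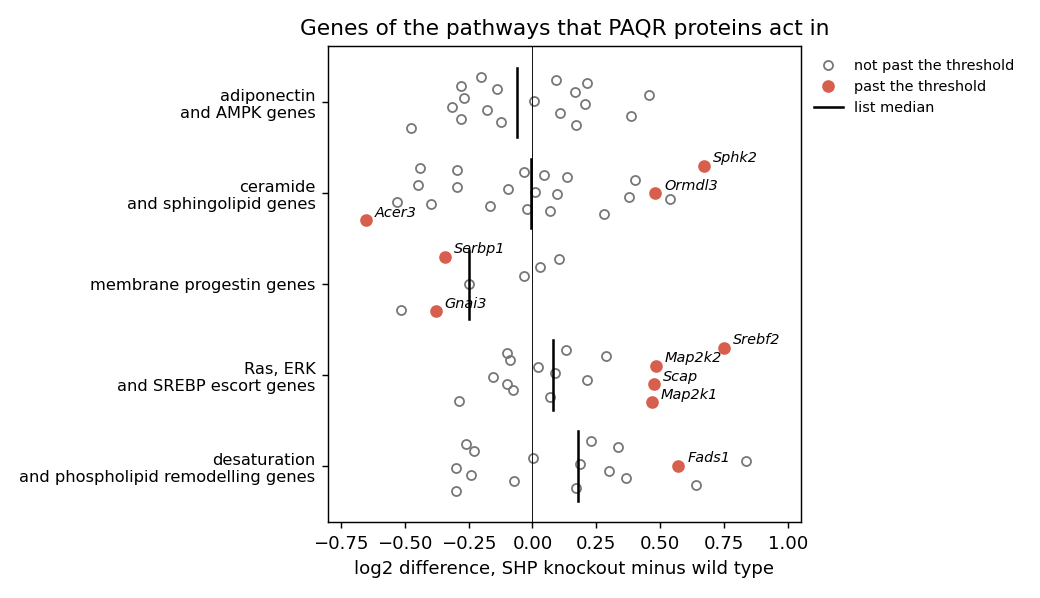
Log2 difference (knockout minus wild type) of the tested genes in 5 lists of PAQR partner pathways; filled points passed the threshold and are named, open points did not, the vertical bars are list medians and vertical placement within a list has no meaning. The 0 calls of the adiponectin list and the 4 higher genes of the Ras, ERK and SREBP list can be seen.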

How the data were processed

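The submitters' processing notes name Novoalign 2.05.33 and the mm9 build, and no source used here names the counting tool or its handling of strand and shared reads. As their table, the authors deposited whole-number counts per Ensembl gene and library, and for the pooled groups RPKM, a log2 ratio and 2 scores of a negative binomial test, which were not used. Empty count cells in 13901 rows, of which 4840 lines end early, leave columns of unequal length, and limma voom was the main test. A gene was tested when 3 libraries reached 1.83 CPM (10 counts at the median library) and its total reached 15. Trimmed means of M values gave the scaling of library size (0.966 to 1.03). Weighted log2 CPM, from counts plus 0.5, were modelled on genotype alone in limma 3.58.1 (R 4.3.3) and adjusted by Benjamini-Hochberg over all tested genes. Fits without 1 library kept the same tested genes. Start coordinates, counted from 0 in the table, were raised by 1. Of counts between 1 and 19, 61.8% were even, so reads may not be independent molecules. The Poisson intervals assume that they are, cover counting error only and may be too narrow. Nothing says which mice shared a litter or lane. The p-values weigh the genotype difference against the spread between libraries of the same genotype. If lane or litter went with genotype, their effects could not be told apart from it. The alternatives were other size factors, no filter, limma trend, robust moderation, a replicate block and leaving out each library. Members and lists were chosen with earlier results of these data known. Named are all members, Paqr5, Paqr6, Nr0b2, up to 4 passing and the 2 most abundant other genes of each list, and the 5 genes most correlated with Mmd2 (mean of at least 5 CPM). Promoter windows are from RefSeq and the later build, and were not joined to mm9 coordinates. Python 3.11.15 with pandas 2.3.3, scipy 1.17.1 and matplotlib 3.10.9 was used for tables and plots.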

Additional observations from a re-analysis of the deposited data

How the results depend on the processing

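Over the 11 alternatives the log2 difference ran from 2.73 to 3.22 for Mmd2, from 1.57 to 1.89 for Paqr9 and from −0.75 to −0.49 for Mmd, given as a description. Genes past the threshold ranged from 1466 with no filter to 1871 with robust moderation, and from 633 to 1572 without 1 library. Robust moderation gave 1 adiponectin gene and 5 ceramide genes, and no filter gave 0 progestin genes and lost Nr0b2 and Acer3. Without 1 library the progestin list had 0 to 1 calls, the Ras, ERK and SREBP list 2 to 4, the ceramide list 2 to 4 and the desaturation list 0 to 2; the cause was not tested, though such fits have fewer samples. With the replicate block 1778 genes and 1 adiponectin gene (Stk11) passed; Sgms1 and Smpd2 were gained, and Acer3 and Nr0b2 lost. Deviations of same-numbered libraries correlated at −0.0105, −0.0177 and −0.0209, and no library correlated best with its own number. Equal numbers were not taken as pairs. Values that did not pass changed sign without 1 library: Adipor2 ran from −0.0625 to 0.0627, Paqr3 from −0.0713 to 0.88, Ppara from −0.23 to 0.0397, Acacb from −0.0339 to 0.24, Sgms2 from −0.20 to 0.0928, Pgrmc1 from −0.0714 to 0.0356, Insig1 from −0.0647 to 0.24 and Insig2 from −0.0592 to 0.20. Paqr3 was at 0.36 by limma trend and 0.42 with the replicate block. Median-of-ratios size factors put Adipor2 at 0.0021. Paqr8, Paqr4 and Paqr3 had the fewest counts of the members, at 34, 45 and 202 over the 6 libraries.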
